A study of Mus musculus with 12 samples.

Results

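Carboxylesterases are serine hydrolases that cut ester bonds in drugs, in other foreign compounds and in neutral lipids. In the mouse the family has multiplied in tandem, and its liver members are mostly enzymes held in the lumen of the endoplasmic reticulum, with a few that are secreted into plasma. Several of them are best known in liver for releasing fatty acids from stored triacylglycerol or for shaping the lipid load of secreted lipoproteins, next to their role in clearing esters of foreign origin. PPARα, the nuclear receptor encoded by Ppara, is activated by fatty acids and switches on genes of lipid catabolism in hepatocytes.

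The genes described here were taken from the Ces1, Ces2 and Ces3 clusters as a list of 10 symbols, Ces1b, Ces1c, Ces1d, Ces1e, Ces1f, Ces1g, Ces2a, Ces2c, Ces2e and Ces3a, and each was read from the probe set that names it and no other gene. Of the 10, 9 had such a probe set, 1 each, among 19938 genes measured in this way; Ces2c, an enzyme that hydrolyses acylglycerols in mouse liver, had none and has no value here. The arrays hold whole liver RNA of 12 pups at postnatal day 2 (P2), 1 array per pup: 6 Ppara-/- pups (males with replicate numbers 4, 5 and 6 and females 10, 11 and 12) and 6 Ppara+/+ pups (males 1, 2 and 3 and females 7, 8 and 9). The labels name no treatment, and both genotypes came from matings of heterozygous parents, so that loss of Ppara in the whole animal is the stated difference between them; the labels name the strain SV129 and the study's methods a C57BL/6 background. The study's methods describe RNA from 3 litters per genotype, so some of the 6 pups of a genotype were littermates; the litter of a pup is not in the labels, and p-values, SDs and correlations treat the pups as independent. Values are log2 signals that the authors summarised and normalised by the robust multi-array average, and a difference of 1 on this scale is a 2-fold difference in signal. Levels of different genes are not set against each other, since probe sets differ in how strongly they bind.

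Ppara itself had 10.21 to 10.33 in the Ppara-/- livers and 10.98 to 11.27 in the Ppara+/+ livers, with no overlap, which fits the genotype labels; the sources used here do not say whether its probes lie in the disrupted part. The 7 measured hepatocyte markers averaged 13.85 to 13.90 in Ppara-/- livers and 13.81 to 13.86 in Ppara+/+ livers. Pancreatic enzyme transcripts averaged 6.52 to 9.48 in Ppara-/- livers, highest in replicates 6 and 10, and 6.47 to 7.99 in Ppara+/+ livers, highest in replicate 9. Intestinal markers averaged 6.18 to 7.83 in Ppara-/- livers, highest in replicate 11, and 6.17 to 6.95 in Ppara+/+ livers, highest in replicate 1. In the marker lists of hepatocytes, erythroid cells, Kupffer cells, endothelium, stellate cells, pancreas and intestine 0 genes passed the test between genotypes (limma, adjusted p under 0.05), although 6 of 8 Kupffer cell markers and 4 of 7 endothelial markers had an unadjusted p under 0.05, as did 3 of 4 erythroid markers, 2 of 6 stellate cell markers and 1 hepatocyte marker. By the unadjusted rule 7.89% of all genes were lower and 9.27% higher. The erythroid markers, all with a negative difference (median -0.17), averaged 11.56 to 11.95 in Ppara-/- livers and 11.72 to 12.01 in Ppara+/+ livers. The 8 Kupffer cell markers, all with a positive difference (median 0.20), averaged 10.06 to 10.23 in Ppara-/- livers and 9.79 to 10.21 in Ppara+/+ livers, and the endothelial markers 10.37 to 10.47 in Ppara-/- and 10.22 to 10.40 in Ppara+/+ livers. The part of such transcripts in the results below was not tested, except where values without a liver are given.

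The promoter windows of the carboxylesterases were compared with each other. Windows of 300 bases, 250 before and 50 after the transcription start, were available from RefSeq (GRCm38.p6) for 7 of the 10 genes; there was none for Ces1d, Ces1f and Ces3a. The windows of Ces1b and Ces1c were 93% identical over 273 aligned bases, with an unbroken shared run of 58 bases. The other pairs of genes shared 67.1% to 78.1% of their aligned bases, which numbered only 62 in some pairs. Pairs across the Ces1 and Ces2 runs reached values as high as pairs within a run. Ces1c and Ces2c shared 78.1%, and Ces1e and Ces1g 68.8%. Apart from Ces1b and Ces1c, these shares do not show how closely the genes are related. The windows of 4 genes are printed 5′ to 3′ on the strand of the gene. The first pair is from the Ces1 run, at chr8:93131234-93131533 (minus strand) for Ces1c, which did not pass between the genotypes, and at chr8:93337160-93337459 (minus strand) for Ces1g, which had the widest difference. The second pair is from the Ces2 run, at chr8:104733753-104734052 (plus strand) for Ces2a and at chr8:104926010-104926309 (plus strand) for Ces2e, which both fell. Capitals mark the longest run that the 2 windows of a pair have in common.
Ces1c: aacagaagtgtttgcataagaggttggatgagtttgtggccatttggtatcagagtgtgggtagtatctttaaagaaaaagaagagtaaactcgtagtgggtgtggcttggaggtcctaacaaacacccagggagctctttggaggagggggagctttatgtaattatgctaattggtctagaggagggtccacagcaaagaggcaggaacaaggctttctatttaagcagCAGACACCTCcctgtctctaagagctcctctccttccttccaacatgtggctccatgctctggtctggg
Ces1g: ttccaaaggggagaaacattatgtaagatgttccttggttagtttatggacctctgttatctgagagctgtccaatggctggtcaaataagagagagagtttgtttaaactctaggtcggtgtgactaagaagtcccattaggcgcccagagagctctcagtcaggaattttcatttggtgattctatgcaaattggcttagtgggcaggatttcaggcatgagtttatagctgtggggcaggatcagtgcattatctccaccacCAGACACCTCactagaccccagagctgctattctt
Ces2a: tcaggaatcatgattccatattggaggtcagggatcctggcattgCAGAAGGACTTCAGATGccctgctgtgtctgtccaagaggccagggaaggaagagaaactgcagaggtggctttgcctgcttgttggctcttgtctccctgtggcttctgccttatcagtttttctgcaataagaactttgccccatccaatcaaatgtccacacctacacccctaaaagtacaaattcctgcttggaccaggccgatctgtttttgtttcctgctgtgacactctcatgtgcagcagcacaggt
Ces2e: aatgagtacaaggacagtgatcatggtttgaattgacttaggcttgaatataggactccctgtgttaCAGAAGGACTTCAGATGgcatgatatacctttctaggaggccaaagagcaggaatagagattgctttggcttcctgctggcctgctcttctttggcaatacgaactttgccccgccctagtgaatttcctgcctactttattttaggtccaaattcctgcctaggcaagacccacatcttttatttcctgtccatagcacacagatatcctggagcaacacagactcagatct
The run of 10 bases shared by Ces1c and Ces1g also stood in the window of Ces1b and in 56 of 32851 mouse promoter windows in all (0.17%). The run of 17 bases shared by Ces2a and Ces2e, which starts 205 bases before the start of Ces2a and 183 bases before that of Ces2e, was found in 2 windows of the 32851 (0.00609%), those of these 2 genes. PPARα binds with its partner RXR to a direct repeat of the half-site AGGTCA with 1 base between the copies. A stretch within 2 mismatches of the 12 fixed bases of this repeat, read on both strands, occurred in 3.86% of all windows and in 0 of the 8 windows of the listed genes. The closest stretches, in Ces2a and Ces2e, had 3 mismatches. These are matches of letters only, and nothing follows from them on where the receptor binds.

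In the Ppara-/- livers Ces3a fell 1.89-fold, Ces1d 1.37-fold, Ces2e 1.36-fold and Ces2a 1.2-fold, and no listed gene rose. So 4 of 9 measured genes were lower (limma with sex as a covariate, Benjamini-Hochberg adjusted p under 0.05 over all probe sets), where the same rule called 1.12% of all genes lower, and 0 of 9 were higher, against 1.99% of all genes. At an unadjusted p under 0.05 the counts were 7 lower and 0 higher, where 7.89% of all genes were lower and 9.27% higher by that rule. In these same 4 genes the highest Ppara-/- liver stayed below the lowest Ppara+/+ liver, as in 1.43% of all genes, and in 0 genes did the Ppara-/- livers all lie above the Ppara+/+ livers, as in 2.88% of all genes. The median log2 fold change, Ppara-/- minus Ppara+/+, was -0.45 over the 9 genes and -0.01 over all genes, and it was below 0 for 8 of the 9 and for 54.9% of all genes. The number of lower genes became 2 without Ppara-/- replicate 4, 10 or 12, and 6 without Ppara+/+ replicate 7 or 9. It was 0 by the Mann-Whitney test in its exact form, which gave each of the 4 genes an adjusted p of 0.0691. Each of the 4 had the smallest unadjusted p that this exact test can give for 6 against 6 livers, 0.00216. The value 0.0691 was therefore the lowest adjusted p of any probe set by this test, and no gene could pass.

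**Figure D1:**
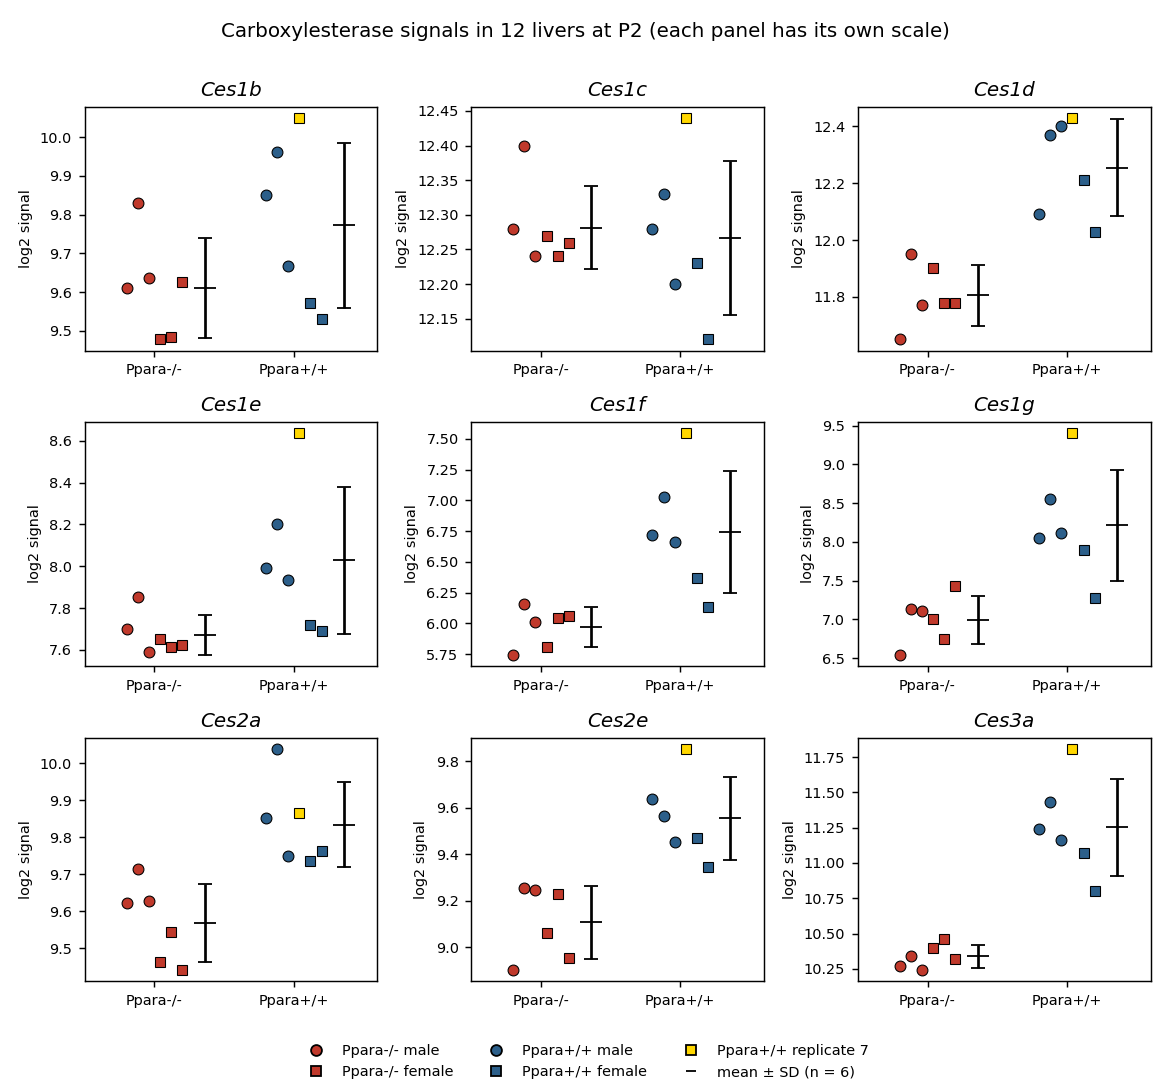
Signal of the 9 measured carboxylesterases in each liver. The vertical axes give the log2 signal, each panel on its own scale; red stands for Ppara-/- and blue for Ppara+/+ livers, males are drawn as circles and females as squares, the yellow square is Ppara+/+ replicate 7, and bars give mean ± SD (n = 6). The genotypes lie apart in Ces1d, Ces2a, Ces2e and Ces3a, overlap in the other 5, and the yellow square is the highest Ppara+/+ liver in 8 of 9 panels.

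Among the members known for handling lipid in the endoplasmic reticulum, Ces1d encodes triacylglycerol hydrolase, which mobilises stored triacylglycerol for lipoprotein assembly in mouse liver. Its signal was 11.65, 11.95 and 11.77 in the male and 11.90, 11.78 and 11.78 in the female Ppara-/- livers. In Ppara+/+ livers it was 12.09, 12.37 and 12.40 in the males and 12.43, 12.21 and 12.03 in the females. The highest Ppara-/- liver, 11.95, stayed below the lowest Ppara+/+ liver, 12.03. The means were 11.81 ± 0.11 and 12.25 ± 0.17 (SD, n = 6 each), which put the log2 fold change at -0.45 with SE 0.0812 and a 95% interval of -0.63 to -0.27 (limma adjusted p = 0.0124). An exact permutation test of the difference gave p = 0.00216, the smallest value that 6 against 6 can give. Without Ppara-/- replicates 6 and 10, the 2 livers with the most pancreatic transcript, the difference was -0.47 and the adjusted p from limma 0.056.

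Ces1g, which is known in the mouse for restraining lipid export and lipid storage in liver, had the widest difference and the widest spread of the list. The Ppara-/- livers gave 6.54, 7.14 and 7.10 in males and 7.0, 6.75 and 7.43 in females. The Ppara+/+ livers gave 8.06, 8.55 and 8.12 in males and 9.40, 7.89 and 7.27 in females. Only the lowest Ppara+/+ liver, replicate 9, reached into the range of the Ppara-/- livers, below their highest, replicate 12. The means, 6.99 ± 0.31 in Ppara-/- and 8.21 ± 0.71 in Ppara+/+ livers (SD, n = 6 each), differed by -1.22 on the log2 scale (95% interval -1.87 to -0.57, SE 0.298), which did not pass over all probe sets (limma adjusted p = 0.0616, exact permutation p = 0.00433). The Ppara-/- mean lay below the array medians of 7.16 to 7.20, a range in which array signals flatten, so the size of this difference is less certain. Ces1g passed without Ppara+/+ replicate 7 (difference -0.96, limma adjusted p = 0.0327) and without Ppara+/+ replicate 9 (-1.43, limma adjusted p = 0.0182).

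Ces1e encodes egasyn, the esterase that holds β-glucuronidase in the endoplasmic reticulum of mouse liver. It had 7.70, 7.85 and 7.59 in male and 7.65, 7.61 and 7.62 in female Ppara-/- livers. It had 7.99, 8.20 and 7.93 in male and 8.64, 7.72 and 7.69 in female Ppara+/+ livers, so that the 2 lowest Ppara+/+ livers lay within the Ppara-/- range. The difference of -0.36 (95% interval -0.66 to -0.05) did not pass (limma adjusted p = 0.261). Gusb, the β-glucuronidase that egasyn holds, stood at 9.10 to 9.33 in Ppara-/- livers and 9.0 to 9.10 in Ppara+/+ livers, a difference of 0.13 that did not pass either (limma adjusted p = 0.184).

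Ces1f lies next to Ces1g on the chromosome, and its signal was below the array medians in all livers but Ppara+/+ replicate 7. It had 5.74, 6.16 and 6.01 in male and 5.81, 6.04 and 6.06 in female Ppara-/- livers, against 6.72, 7.03 and 6.66 in male and 7.55, 6.37 and 6.13 in female Ppara+/+ livers. Here too Ppara+/+ replicate 9 alone overlapped with the Ppara-/- livers. The difference was -0.77 on the log2 scale (95% interval -1.21 to -0.33) and did not pass (limma adjusted p = 0.0787, exact permutation p = 0.00433). It passed without Ppara+/+ replicate 7 (-0.59, limma adjusted p = 0.0324) and without Ppara+/+ replicate 9 (-0.90, limma adjusted p = 0.0356).

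At the other end of the same run of genes, the difference between genotypes was small. Ces1c, the carboxylesterase that mouse liver secretes into plasma, had 12.24 to 12.40 in Ppara-/- livers and 12.12 to 12.44 in Ppara+/+ livers. Its means of 12.28 ± 0.06 and 12.27 ± 0.11 (SD, n = 6 each) differed by 0.01, with a 95% interval of -0.11 to 0.13 (limma adjusted p = 0.941). The sign of this difference turned under quantile normalisation, in females and without Ppara-/- replicate 5, Ppara+/+ replicate 3 or Ppara+/+ replicate 9. Ces1b, its neighbour with the nearly identical promoter window, had 9.48 to 9.83 in Ppara-/- livers and 9.53 to 10.05 in Ppara+/+ livers, a difference of -0.16 (95% interval -0.36 to 0.04, limma adjusted p = 0.443). Both genes overlapped between the genotypes over most of their range. A fall as deep as that of Ces1d, -0.45, lies outside both intervals.

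The Ces2 enzymes cleave esters with a bulky alcohol group, which includes many prodrugs, and some also hydrolyse acylglycerols. Ces2a had 9.62, 9.71 and 9.63 in male and 9.46, 9.54 and 9.44 in female Ppara-/- livers. In Ppara+/+ livers it had 9.85, 10.04 and 9.75 in males and 9.87, 9.74 and 9.76 in females. The ranges lay apart by little, with 9.71 in the highest Ppara-/- liver and 9.74 in the lowest Ppara+/+ liver. Ces2a fell by 0.27 on the log2 scale (95% interval -0.38 to -0.15), at means of 9.57 ± 0.11 in Ppara-/- and 9.83 ± 0.11 in Ppara+/+ livers (SD, n = 6 each, limma adjusted p = 0.0212, exact permutation p = 0.00216). Without Ppara-/- replicate 4, 10 or 12 the adjusted p from limma was 0.0529, 0.0549 and 0.0587.

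Ces2e had 8.90, 9.26 and 9.25 in male and 9.06, 9.23 and 8.96 in female Ppara-/- livers. The Ppara+/+ values were 9.64, 9.56 and 9.45 in males and 9.85, 9.47 and 9.34 in females. Its ranges lay apart as well, with replicate 5 the highest of the Ppara-/- livers and replicate 9 the lowest of the Ppara+/+ livers. The means were 9.11 ± 0.16 and 9.55 ± 0.18 (SD, n = 6 each), which put the log2 fold change at -0.45 (95% interval -0.65 to -0.24, limma adjusted p = 0.0318, exact permutation p = 0.00216). The call was lost when Ppara-/- replicate 4, 10 or 12 was left out, and equally when 1 of the Ppara+/+ livers 1, 2 and 8 was, with an adjusted p from limma of 0.0612 to 0.0788.

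Ces3a, a liver esterase of a class of its own, showed the clearest separation. It had 10.27, 10.34 and 10.24 in male and 10.40, 10.46 and 10.32 in female Ppara-/- livers. It had 11.24, 11.43 and 11.16 in male and 11.81, 11.07 and 10.80 in female Ppara+/+ livers. The 6 Ppara-/- livers lay within 0.23 of each other, while the Ppara+/+ livers spread over 1.01. The means of 10.34 ± 0.08 and 11.25 ± 0.34 (SD, n = 6 each) differed by -0.92 (95% interval -1.22 to -0.62, limma adjusted p = 0.00383, exact permutation p = 0.00216). Leaving out any 1 liver kept the adjusted p from limma at or below 0.0131. By the size of the fall Ces3a ranked 33 and Ces1g 20 among all 19938 genes.

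**Figure D2:**
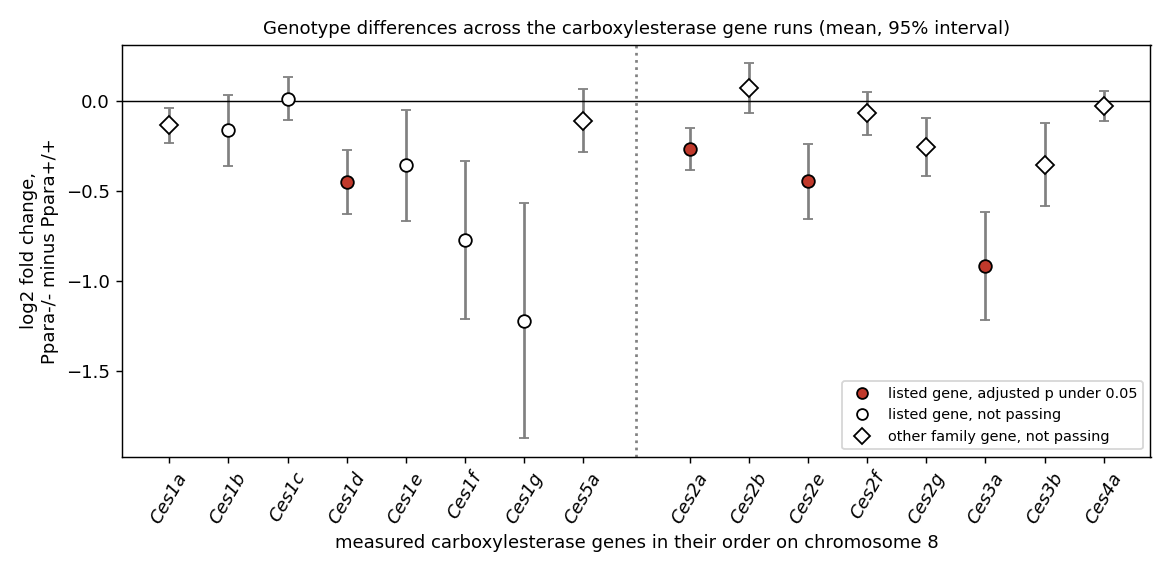
Differences between genotypes for the measured carboxylesterase genes in their order on mouse chromosome 8 (RefSeq GRCm38.p6). The vertical axis gives the log2 fold change, Ppara-/- minus Ppara+/+, with its 95% interval; circles are the listed genes (filled where the adjusted p is under 0.05), diamonds the other genes of the family, and the dotted line parts the 2 runs. Values range from -1.22 at Ces1g to 0.07 at Ces2b, and 7 measured genes other than the listed ones did not pass.

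The family lies in 2 runs on chromosome 8, from Ces1a to Ces5a and from Ces2a to Ces4a, and the differences were not even along them. From Ces1c to Ces1g, 5 genes in an unbroken row, the log2 fold changes were 0.01, -0.45, -0.36, -0.77 and -1.22. Ces1a and Ces1b, which lie before Ces1c, had -0.13 and -0.16. From Ces1a to Ces1g only Ces1d passed. In the second run too, the genes that passed stood among others that did not. Ces2b, between Ces2a and Ces2c, had 0.07, and Ces2f, next to Ces2e, had -0.07. The mean signals of Ces2b and Ces2f, 6.10 and 5.92, lay below the array medians of 7.16 to 7.20. Differences are understated at such signals, so these 2 values do not show whether the genes responded. Probe sequences were not among the files used here, and whether a probe set of one of these related genes also binds the transcript of another was not tested. Of the 11 family genes outside the list 7 were measured, and 0 of them passed in limma, where 1.12% of all genes were lower and 1.99% higher. None passed when any 1 liver was left out. At an unadjusted p under 0.05 there were 3, Ces1a, Ces2g and Ces3b, all lower, where 7.89% of all genes were lower and 9.27% higher. Of the 7 only Ces2g had a mean signal above the array medians, which limits what the others show. The nearest to passing were Ces2g and Ces3b. Ces2g had 9.85 to 10.15 in Ppara-/- livers and 10.04 to 10.42 in Ppara+/+ livers, a difference of -0.25 (limma adjusted p = 0.121). Ces3b, the neighbour of Ces3a, had 5.02 to 5.24 in Ppara-/- livers and 5.19 to 5.92 in Ppara+/+ livers, a difference of -0.35 at signals well below the array medians (limma adjusted p = 0.133).

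The carboxylesterases also differed in how much pups of 1 genotype varied. The SD of the Ppara+/+ livers was above that of the Ppara-/- livers in 9 of 9 genes, against 52% of all genes, and over 2 times as large in 4, against 10.2% of all genes. The ratio was 4.08 in Ces3a, 3.68 in Ces1e, 3.13 in Ces1f and 2.29 in Ces1g, and 1.08 to 1.80 in the other 5. A single liver carried part of this. Ppara+/+ replicate 7, a female, was the highest of its genotype in 8 genes, all but Ces2a, and Ppara+/+ replicate 9, also a female, was the lowest in 8. The share of all genes in which these livers lay at the ends of their genotype was not taken. Without Ppara+/+ replicate 7 the SD was larger in Ppara+/+ livers in 8 of 9 genes, against 43.8% of all genes, and over 2 times as large in 3, against 8.07%; Ces2e then had a ratio of 0.71 and Ces1g one of 1.48. Markers of some other liver cells had a wider spread in Ppara+/+ livers too. By SD this held for 8 of 8 Kupffer cell markers (over 2 times in 4), 6 of 7 endothelial markers (over 2 times in 3) and 5 of 6 stellate cell markers (over 2 times in 2). It held for 1 of 4 erythroid, 4 of 7 hepatocyte, 0 of 6 pancreatic and 2 of 8 intestinal markers. The Kupffer cell mean was highest in Ppara+/+ replicate 7, at 10.21 against 9.79 to 9.99 in the other Ppara+/+ livers. The erythroid mean was lowest of the genotype in that liver, at 11.72 against 11.89 to 12.01 in the other Ppara+/+ livers. Ppara+/+ replicate 9 had the lowest Kupffer cell mean, 9.79, and the highest pancreatic mean of its genotype, 7.99. The endothelial mean was highest of the genotype in Ppara+/+ replicate 7 (10.40) and lowest in Ppara+/+ replicate 9 (10.22), while the stellate cell mean was lowest in Ppara+/+ replicate 9 (9.66) but highest in Ppara+/+ replicate 1 (9.95). In bulk liver, fewer cells of a type and less RNA per cell cannot be told apart.

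**Figure D3:**
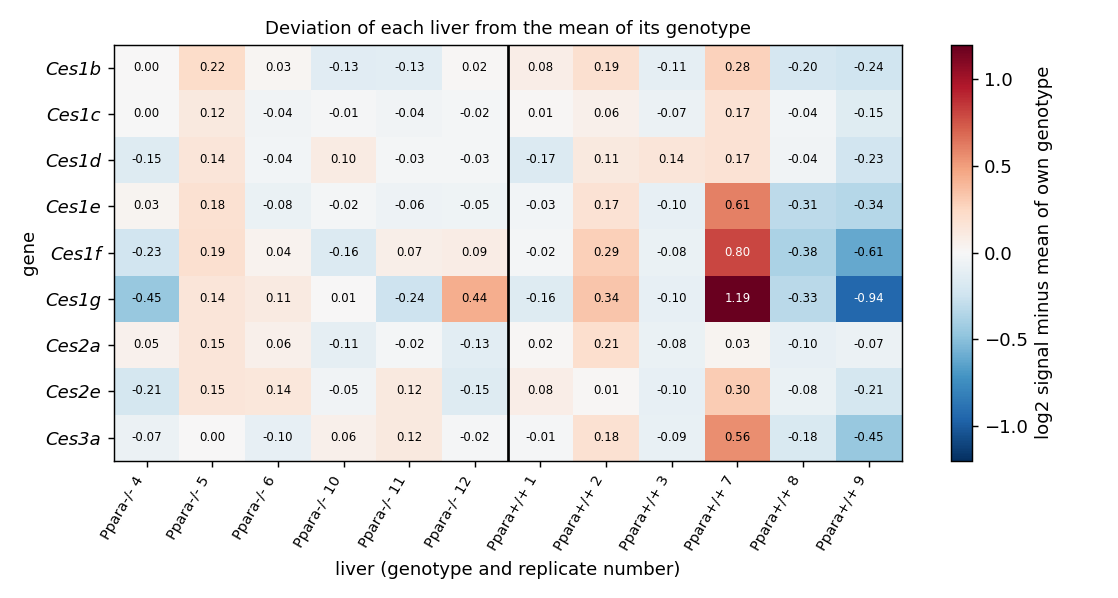
Deviation of each liver from the mean of its own genotype. Rows are the 9 measured carboxylesterases, columns the 12 livers with Ppara-/- on the left and Ppara+/+ on the right, and each cell gives the log2 signal minus the mean of that genotype (red above, blue below). In Ppara+/+ replicate 7 the deviations run from 0.03 in Ces2a to 1.19 in Ces1g, and in Ppara+/+ replicate 9 from -0.94 in Ces1g to -0.07 in Ces2a.

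The Ppara+/+ pups were ordered much alike by several of these genes. Ces1g, which varied most, was set against each other member within a genotype, a choice made after its values were seen, which with Ppara gave 17 relations. Across the 6 Ppara+/+ livers Pearson's r with Ces1g was 0.994 for Ces3a, 0.986 for Ces1f, 0.965 for Ces1e and 0.893 for Ces1b (exact permutation p = 0.00278 each, adjusted p = 0.0118). It was 0.962 for Ces1c (exact permutation p = 0.00556, adjusted 0.0189) and 0.915 for Ces2e (exact permutation p = 0.0153, adjusted 0.0434). Ces1d (r = 0.805, exact permutation p = 0.0333, adjusted 0.0809), Ces2a (r = 0.521, adjusted exact permutation p = 0.482) and Ppara itself (r = 0.709, adjusted exact permutation p = 0.227) did not pass. Spearman's rho was 0.943 for Ces3a, Ces1f, Ces1e and Ces1b, with an exact permutation p of 0.0167 that did not pass after adjustment (0.071); rho was 0.829 for Ces1c (adjusted exact permutation p = 0.165), 0.886 for Ces1d (0.113), 0.714 for Ces2e (0.289), 0.657 for Ces2a (0.298) and 0.657 for Ppara (0.298). Ppara+/+ replicates 7 and 9 were the livers farthest from the median of Ces1g. Without them r over the other 4 was 0.955 for Ces3a, 0.952 for Ces1f, 0.936 for Ces1e, 0.837 for Ces1b and 0.738 for Ces1c. It was 0.302 for Ces2e, 0.563 for Ces1d, 0.92 for Ces2a and 0.54 for Ppara. An r over 4 livers is imprecise, and whether these values differ from those over 6 livers was not tested. The share of all genes with such an r to Ces1g over these livers was not taken, so the shared order is not shown to be particular to carboxylesterases. All points come from arrays normalised together. The Kupffer cell, endothelial, stellate cell and erythroid means of the same livers are given above, and their part in these relations was not tested.

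Across the 6 Ppara-/- livers none of the 8 relations passed, by r or by rho. Pearson's r with Ces1g ran from -0.289 for Ces2a to 0.62 for Ces1f, with adjusted exact permutation p from 0.357 to 0.968, and Spearman's rho from -0.143 for Ces3a to 0.771 for Ces1f, with adjusted exact permutation p from 0.25 to 1. Without Ppara-/- replicates 4 and 12, r ran from -0.807 for Ces3a to 0.736 for Ces1b over 4 livers. Whether r differed between the genotypes was not tested. In Ppara-/- livers replicate 5, a male, was the highest in 7 of the 9 genes, with Ces1g highest in replicate 12 and Ces3a in replicate 11.

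Ces3a, Ces1g, Ces1d, Ces2e and Ces2a had negative differences in both male and female pups. In Ppara-/- against Ppara+/+ males Ces3a had a log2 fold change of -0.998 and in females one of -0.83; the pairs, males first, were -1.31 and -1.13 for Ces1g, -0.50 and -0.40 for Ces1d, -0.42 and -0.47 for Ces2e, and -0.23 and -0.31 for Ces2a. For an interaction of genotype and sex 0 members passed in limma, where 0% of all genes passed, and 0 had an unadjusted p under 0.05, against 1.79% of all genes. The 95% interval of the interaction, female minus male, ran from -1.19 to 1.56 for Ces1g and from -0.46 to 0.79 for Ces3a. Intervals this wide cannot show that the sexes responded alike. With 3 livers per genotype and sex, none of the members passed within males or within females alone (smallest limma adjusted p, 0.0639, for Ces3a in males). Between females and males 0 members passed, against 0.0401% of all genes, and Ces2a was the 1 with an unadjusted p under 0.05, as 2.78% of all genes had. Its difference, female minus male, was -0.13 with a 95% interval of -0.25 to -0.02.

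The other hydrolases of liver that cut esters, lipids or epoxides did not move as a group. Of 17 listed, 16 were measured; 4 were lower and 1 was higher in Ppara-/- livers (limma adjusted p under 0.05, where 1.12% of all genes were lower and 1.99% higher), and their median log2 fold change was -0.01. Mgll, the monoacylglycerol lipase that completes the breakdown of triacylglycerol, had 9.69 to 9.95 in Ppara-/- livers and 10.61 to 10.70 in Ppara+/+ livers. It fell 1.78-fold (limma adjusted p = 3.55e-06). Abhd6, another monoacylglycerol hydrolase, fell 1.35-fold (8.93 to 9.21 in Ppara-/- and 9.41 to 9.67 in Ppara+/+ livers, limma adjusted p = 0.00268). Nceh1, a neutral cholesterol ester hydrolase, fell 1.32-fold (10.10 to 10.40 in Ppara-/- and 10.56 to 10.78 in Ppara+/+ livers, limma adjusted p = 0.00208). Ephx2, the soluble epoxide hydrolase, fell 1.23-fold (11.18 to 11.26 in Ppara-/- and 11.43 to 11.57 in Ppara+/+ livers, limma adjusted p = 0.00113). In each of these 4 the genotypes lay apart, as in Ces3a, but of these 4 only Abhd6 was highest of its genotype in Ppara+/+ replicate 7. Over all 16 measured hydrolases this liver had the highest mean of the Ppara+/+ livers, 10.6, with 10.5 in the lowest. Some hydrolases that did not pass, such as Gusb, were highest in this liver as well, and others, such as Lipa, were not.

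**Figure D4:**
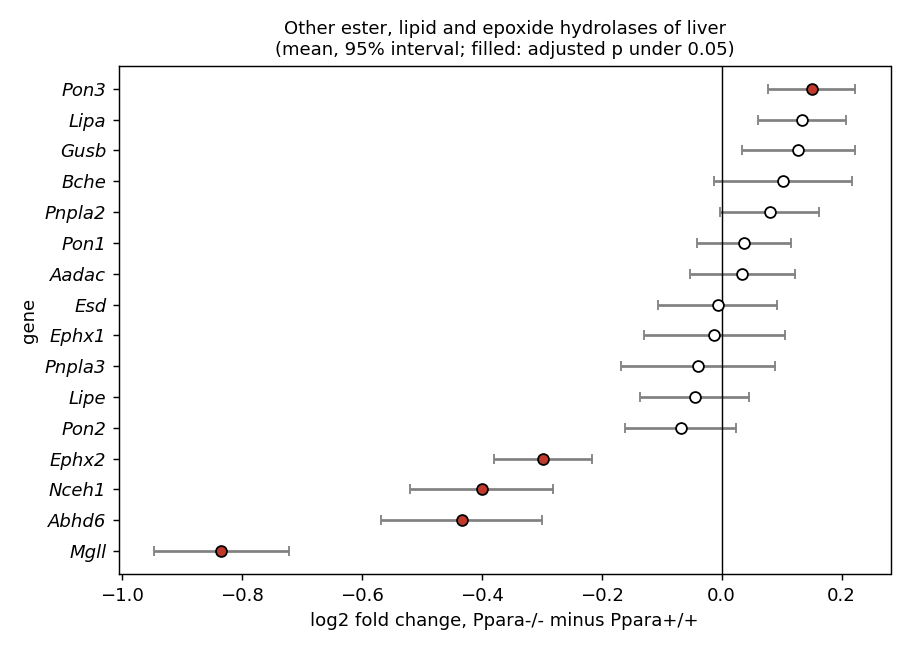
Differences between genotypes for the 16 measured hydrolases of esters, lipids or epoxides outside the carboxylesterase family. The horizontal axis gives the log2 fold change, Ppara-/- minus Ppara+/+, with its 95% interval; filled points have an adjusted p under 0.05. Mgll lies farthest to the left at -0.83, and Pon3 farthest to the right at 0.15.

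Pon3, a paraoxonase that hydrolyses lactones, rose by 0.15 on the log2 scale (10.88 to 10.94 in Ppara-/- and 10.68 to 10.80 in Ppara+/+ livers, limma adjusted p = 0.0398). This was the 1 higher gene of the list, and the count was 0 when any 1 liver other than Ppara+/+ replicate 7 was left out. Lipa, the lysosomal acid lipase, had 12.50 to 12.59 in Ppara-/- livers and 12.33 to 12.50 in Ppara+/+ livers and did not pass (0.13, limma adjusted p = 0.0699).

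Of 12 receptors and factors that are known to act on carboxylesterase or other drug-handling genes 11 were measured. The 1 that was lower was Ppara, the gene that the genotype disrupts (log2 fold change -0.89, limma adjusted p = 1.2e-06), and 1 was higher. By the same rule 1.12% of all genes were lower and 1.99% higher. Ahr, the aryl hydrocarbon receptor, rose by 0.18 (10.57 to 10.70 in Ppara-/- and 10.44 to 10.48 in Ppara+/+ livers, limma adjusted p = 0.0108). The nearest others were Nfe2l2, the factor NRF2 of the response to electrophiles, at 0.09 (limma adjusted p = 0.272), and Nr1i3, the xenobiotic receptor CAR, at 0.10 (limma adjusted p = 0.274). Apart from Ppara, each of the measured receptors and factors differed between the genotypes by less than Ces2a did.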

How the data were processed

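RNA of whole liver from 12 pups was hybridised to Affymetrix MoGene 1.0 ST arrays. The authors deposited log2 values, 1 per probe set and array, computed by RMA (named in the submitters' processing notes, version not given), and were used as deposited. Of 35556 probe sets 21789 name 1 gene, 1621 several and 12146 none in the platform annotation; 99.6% of those with 1 gene were found in the RefSeq gene table by gene identifier. The medians of the arrays lay between 7.16 and 7.20 and their correlations with each other between 0.989 and 0.996, and the number of arrays limits the precision. RMA draws low signals together, which understates differences of dim genes. Groups came from the sample labels, and 0 value columns were left unassigned.

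For a gene, the probe set of highest mean was kept among those that name it alone. Linear models with the terms genotype and sex were fitted to every probe set with limma 3.58.1 in R 4.3.3 (functions lmFit and eBayes, 9 residual and 2.49 prior degrees of freedom), with Benjamini-Hochberg adjustment of p-values across all probe sets. Interaction, sex and within-sex contrasts were fitted likewise. Single differences and correlations were also tested by two-sided exact permutation. The calculation was tested on simulated data. Promoter windows were taken from RefSeq (GRCm38.p6) and aligned with Biopython 1.88.

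The members, gene lists, marker lists and alternatives were chosen with earlier results of these data known, and no count over a list is independent evidence. Every measured member is named; of the other carboxylesterases, the other hydrolases and the receptors and factors, each gene past the threshold and the 2 nearest to it on the other side; neighbours of members on the chromosome are named for their position, and marker lists are given by counts and means. The alternatives were genotype alone, quantile normalisation, median centring, a filter on dim probe sets (mean under the 40th percentile), single-gene probe sets, a robust variance trend, array weights, a mean over all probe sets of a gene, an exact Mann-Whitney test, each sex, each array left out in turn, a change above 1.3-fold and unadjusted p-values. Leaving out Ppara-/- 6 and 10, Ppara+/+ 7 and 9, or Ppara-/- 11 and Ppara+/+ 1 together was added after seeing the data.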

Additional observations from a re-analysis of the deposited data

Results flagged for a closer look

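Of 44 groups of 6 livers looked at for a value far from the others, 3 held one, and chance alone gives about 1 in 20. Ces1c was 12.40 in Ppara-/- replicate 5, against 12.28 in the next highest Ppara-/- liver, and this gap took up 0.736 of the range of the genotype. Gusb was 9.33 in Ppara-/- replicate 11, with the next highest Ppara-/- liver at 9.14 (0.818 of the range); this is the liver with the highest mean of intestinal markers, 7.83. Nfe2l2 was 11.16 in Ppara+/+ replicate 7, with the next highest Ppara+/+ liver at 11.07 (0.637 of the range); this is the liver in which 8 of 9 carboxylesterases were at the top of their genotype. The part of the other transcripts of these livers was not tested.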

How the results depend on the processing

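Of 9 measured carboxylesterases 4 were lower in Ppara-/- livers as fitted. The number was 0 by the exact Mann-Whitney test, by which no probe set passed, and 0 in males and in females. It was 7 at an unadjusted p under 0.05, and 2 to 6 with 1 liver left out. With Ppara-/- 6 and 10 left out together it was 1, and with Ppara-/- 11 and Ppara+/+ 1 left out together 2. The number of higher ones was 0 throughout. Members that differed by sex numbered 1 at an unadjusted p, and the other hydrolases that were higher numbered 0 to 1 with 1 liver left out.

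Log2 fold changes that lost their call are given here by setting. The exact Mann-Whitney test gave -0.45 for Ces1d, -0.26 for Ces2a, -0.41 for Ces2e and -0.87 for Ces3a. Its values are medians of all differences between a Ppara-/- and a Ppara+/+ liver, and no probe set passed by it. Males alone gave -0.50 for Ces1d, -0.23 for Ces2a, -0.42 for Ces2e and -0.998 for Ces3a, and females alone -0.40 for Ces1d, -0.31 for Ces2a, -0.47 for Ces2e and -0.83 for Ces3a; fewer livers enter there. Without Ppara-/- 6 and 10 the values were -0.47 for Ces1d, -0.25 for Ces2a and -0.47 for Ces2e. Without Ppara+/+ 7 and 9 they were -0.23 for Ces2a (limma adjusted p = 0.0987) and -0.41 for Ces2e (0.0528), and without Ppara-/- 11 and Ppara+/+ 1 -0.29 for Ces2a (0.0782) and -0.46 for Ces2e (0.121). With 1 liver left out, Ces2a ran from -0.30 to -0.24 and Ces2e from -0.49 to -0.38.

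Ces1f gained a call with single-gene probe sets and with the mean of probe sets (-0.77 in both, fewer tests adjusted over), and without Ppara+/+ 7 and 9 (-0.69, limma adjusted p = 0.0253); with 1 liver left out it ran from -0.90 to -0.59. Leaving out dim probe sets removed Ces1f. Ces1g gained one with genotype alone, without dim probe sets, with single-gene probe sets, with a robust trend and with the mean of probe sets (-1.22 in each), with array weights (-1.10) and without Ppara+/+ 7 and 9 (-1.15); with 1 liver left out it ran from -1.43 to -0.96. Ces1c turned negative under quantile normalisation (-0.0213) and in females (-0.0063), and ran from -0.0161 to 0.0545 with 1 liver left out. Where no value shows the cause of such a change, the cause was not tested. Of 26 settings with a value, Ces3a passed in 23, Ces1d in 22, Ces2a in 17, Ces2e in 14, Ces1g in 9, and Ces1b, Ces1c and Ces1e in 0; Ces1f passed in 5 of 25. No paired analysis was possible because the litter of a pup is not in the labels and the genotypes share no replicate numbers. Signals below the array medians limit how well the size of the differences in Ces1f and Ces1g is known.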
